A study of Mus musculus with 9 samples.

Results

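The Hox cluster genes, the homeobox genes of the Hoxa, Hoxb, Hoxc and Hoxd clusters, were examined in mouse intrahepatic cholangiocarcinoma cells that carried a CRISPR/Cas9 cut in Vcam1. Every row of the deposited gene count table whose symbol is Hox followed by a, b, c or d and a position number was taken, which gave 39 of 55276 genes: 11 in Hoxa, 10 in Hoxb, 9 in Hoxc and 9 in Hoxd. All 9 libraries came from PPTR cells, a line grown in 2D culture with 10% fetal bovine serum and derived from mouse liver cancer. Controls and knockouts share all alleles of that model, among them Rosa-ZsGreen, a reporter, and Prom1CreERT2, a recombinase driven from the Prom1 gene. The control cells, labelled WT, were not knocked out for Vcam1, whereas KO1 and KO2 are each 1 single-cell clone made with a guide against Vcam1. Each group holds 3 libraries, from cultures at different passages per the study's methods, and the comparison was made to look for targets downstream of Vcam1. With 1 clone per knockout, the loss of Vcam1 and other differences between single-cell clones cannot be told apart. The p-values of comparisons between the 3 groups therefore measure the spread between libraries of 1 culture or clone. Where both clones were combined, differences between the clones also count as spread.

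Hox genes encode transcription factors that bind DNA through a homeodomain and give cells their position along the body axis. They lie in 4 clusters that arose by duplication, so that a gene has paralogues at the same position in other clusters. Low-numbered genes lie at the end of the cluster that is used first and most anteriorly in the embryo, and high-numbered genes lie at the posterior end. Polycomb complexes keep the clusters silent and Trithorax complexes keep them active, and many adult cell types retain part of the pattern of their site of origin.

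In the GRCm38 (mm10) annotation, Hoxa spans chromosome 6 from 52155590 to 52260880 on the minus strand, over 105.3 kb. Hoxb spans chromosome 11 from 96194316 to 96368256 on the plus strand, over 173.9 kb. Hoxc spans chromosome 15 from 102921103 to 103036852 and Hoxd chromosome 2 from 74668310 to 74765142, both on the plus strand. The defining stretch of each gene is the homeobox, 180 coding bases that spell the homeodomain. The homeoboxes of 5 genes described below are shown as examples from Hoxa, Hoxb and Hoxc, with the 15 bases that encode the core of the DNA-binding helix in capitals.
Hoxb13 homeobox, chr11:96196020-96196199, plus strand: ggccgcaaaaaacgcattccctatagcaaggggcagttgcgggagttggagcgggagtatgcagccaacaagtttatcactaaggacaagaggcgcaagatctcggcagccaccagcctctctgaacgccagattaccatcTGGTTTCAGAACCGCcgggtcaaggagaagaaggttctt
Hoxb9 homeobox, chr11:96274659-96274838, plus strand: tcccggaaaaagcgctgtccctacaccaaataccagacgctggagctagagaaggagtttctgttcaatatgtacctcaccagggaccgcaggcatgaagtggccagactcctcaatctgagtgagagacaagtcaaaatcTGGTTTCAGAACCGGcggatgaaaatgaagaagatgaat
Hoxb6 homeobox, chr11:96300689-96300868, plus strand: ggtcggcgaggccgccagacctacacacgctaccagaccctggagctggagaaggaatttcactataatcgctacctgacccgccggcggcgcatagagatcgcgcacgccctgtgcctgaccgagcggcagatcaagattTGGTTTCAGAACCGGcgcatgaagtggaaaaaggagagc
Hoxa10 homeobox, chr6:52232554-52232733, minus strand: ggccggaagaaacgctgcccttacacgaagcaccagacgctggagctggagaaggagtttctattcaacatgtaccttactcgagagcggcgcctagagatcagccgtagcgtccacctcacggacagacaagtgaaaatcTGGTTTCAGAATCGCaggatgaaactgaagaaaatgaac
Hoxc6 homeobox, chr15:103010754-103010933, plus strand: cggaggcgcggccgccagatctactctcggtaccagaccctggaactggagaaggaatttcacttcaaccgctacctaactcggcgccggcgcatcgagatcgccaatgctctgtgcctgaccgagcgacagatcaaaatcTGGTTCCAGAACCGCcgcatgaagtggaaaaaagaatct
The capitals were located by the conserved motif of this helix in the reading frame, which was found in all 39 genes. Paralogues at the same position were 67.2 to 93.9% identical over the homeobox, with a median of 80.6% over 42 pairs. Genes of the same cluster at other positions had a median of 61.7% over 172 pairs, close to the 60.6% of the remaining 527 pairs. The shared homeobox raises the question of reads that could be assigned to several genes. Over whole transcripts, Hoxb13 shared 0% of its 31-base words with other genes, while Hoxa2 and Hoxa3 shared 13.7% and 8.24%, mostly with the overlapping gene model Gm28308. Hoxd3 and Hoxd4 shared 61.1% and 49.1%, and their counts are therefore uncertain.

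The 250 bases upstream of an annotated start are shown for 3 genes: Hoxb8 and Hoxb4, which moved with the rest of their cluster, and Hoxa10, whose direction differed between the clones. They are from RefSeq (GRCm38.p6), and capitals mark matches to TTTATG, a Cdx motif, AGGTCA, a nuclear receptor element, or TATAAA, the TATA box, on either strand.
Hoxb8 upstream, chr11:96281655-96281904, plus strand: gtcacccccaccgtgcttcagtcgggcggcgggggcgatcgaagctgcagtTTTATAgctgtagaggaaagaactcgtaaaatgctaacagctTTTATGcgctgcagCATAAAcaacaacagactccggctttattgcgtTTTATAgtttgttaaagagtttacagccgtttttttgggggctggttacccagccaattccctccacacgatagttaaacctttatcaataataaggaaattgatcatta
Hoxb4 upstream, chr11:96318017-96318266, plus strand: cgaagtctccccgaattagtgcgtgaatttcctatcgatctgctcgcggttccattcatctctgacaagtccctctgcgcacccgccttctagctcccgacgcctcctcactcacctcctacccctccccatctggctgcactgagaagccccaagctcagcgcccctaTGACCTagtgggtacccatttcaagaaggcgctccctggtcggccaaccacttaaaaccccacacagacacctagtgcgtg
Hoxa10 upstream, chr6:52240855-52241104, minus strand: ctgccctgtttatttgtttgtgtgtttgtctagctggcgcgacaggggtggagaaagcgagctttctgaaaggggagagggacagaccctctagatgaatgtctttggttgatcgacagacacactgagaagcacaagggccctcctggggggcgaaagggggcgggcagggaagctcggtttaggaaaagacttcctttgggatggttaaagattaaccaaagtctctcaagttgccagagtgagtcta
The Hoxb8 stretch held TTTATG and TATAAA matches, the Hoxb4 stretch held 1 AGGTCA match in reverse, and the Hoxa10 stretch held none of these letters. A second Hoxa10 start, further into the gene, held a TATAAA match and is not shown. RefSeq promoters were matched for 22 of the 39 genes, with 24 starts. Of these 24, 5 held TTTATG, against 10.8% of all 32851 promoters. AGGTCA was in 6, against 14% of all promoters, and TATAAA was in 4, against 12.4%. TGATTNAT, a site for Hox and Pbx pairs, was in 2, against 2.8% of all. The Hox promoters held a median of 12.5 CpG dinucleotides, compared with 6 for all promoters. These matches describe letters in the window and are no evidence of binding.

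Library totals lay between 53415907 and 125223073 counts, and levels are given as CPM, counts normalized to the TMM-scaled library size. Detection in a library was set at more than 3 counts, and 3 counts equalled 0.0239 to 0.0554 CPM. Vcam1 lay at 221 to 329 CPM in the control, 92.4 to 128 CPM in KO1 and 83 to 119 CPM in KO2, with log2 fold changes of -1.32 (adjusted p = 0.000347) and -1.41 (adjusted p = 0.000293), so its mRNA was lower but still present in both clones. The paper reports that Vcam1 was lost in both clones, by qRT-PCR and by flow cytometry with a Vcam1 antibody. The clones also differed from the control in cell type markers. Of 8 biliary markers, 6 were lower in both clones, beside 30% of all genes called lower in KO1 and 26.1% in KO2. Krt19, a keratin, went from 2129 to 2406 CPM in the control to 0.016 to 0.226 CPM in the clones. Spp1 was higher in both, by 2.10 and 1.96 on the log2 scale, and Sox9 was not called in either. The sum of the biliary markers was 13490 to 15180 CPM in the control, 10550 to 10980 CPM in KO1 and 7567 to 11020 CPM in KO2. In the clones nearly all of it was Spp1, at a mean of 10576 CPM in KO1 and 9640 CPM in KO2. The control mean of Spp1 was 2474 CPM. The summed level of 9 fibroblast markers was 427 to 828 CPM in the control, 12480 to 15950 CPM in KO1 and 6751 to 9094 CPM in KO2, mostly from Col1a1 and Postn in KO1. Thy1 was at no more than 0.287 CPM in any library, and in KO1 Dcn fell by 4.11 on the log2 scale (adjusted p = 0.000222). The 6 hepatocyte markers summed to 626 to 995 CPM in the control and to no more than 3.03 CPM in either clone. The part of these shifts in the Hox results was not tested. In bulk RNA, fewer cells with a transcript and less of it per cell cannot be told apart. Of the KO1 libraries, replicate 3 stood apart, with a chi-square per degree of freedom of 240.3 and 274.6 against the other KO1 libraries, which differed by 36 between themselves. The same values for KO2 replicate 3 were 165.6 and 113, against 35.8 between the other KO2 libraries. The control libraries differed by 84.4 to 169.3 between themselves, a range that holds the values of KO2 replicate 3. In KO1 replicate 3 the 6 proliferation markers summed to 192 CPM, whereas the other KO1 libraries held 829 and 1006 CPM, and KO2 replicate 3 held 1828 CPM, the highest of the 9 libraries.

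Over all 39 genes, the control cells carried mainly Hoxb transcripts and both clones mainly Hoxa transcripts. The summed Hoxb level was 48.9, 47.8 and 57.2 CPM in the control libraries. It was 1.06, 0.762 and 0.591 CPM in KO1 and 0.96, 1.06 and 0.887 CPM in KO2. Every clone library was thus far below every control library for Hoxb. The summed Hoxa level was 6.77, 8.12 and 8.76 CPM in the control and 42.1, 34.7 and 43.3 CPM in KO1. In KO2 it was 8.62, 10.6 and 13.7 CPM, which overlapped the control range. Hoxc sums were small, at 1.29 to 2.12 CPM in the control, 0.073 to 0.284 CPM in KO1 and 0.074 to 0.6 CPM in KO2. Hoxd was close to silent, with no library above 0.165 CPM. The total over all 39 genes was 60.9 ± 6.24 CPM in the control, 41.1 ± 4.79 CPM in KO1 and 12.3 ± 2.27 CPM in KO2 (SD, n = 3 each), with no overlap between the groups. Without the genes whose exons overlap another gene on the same strand, Hoxa3 among them, the mean Hoxa sum was 20.9 CPM in KO1 in place of 40, 5.55 CPM in KO2 in place of 11 and 7.39 CPM in the control in place of 7.88. The KO2 mean then lay below that of the control and no longer above it.

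**Figure D1:**
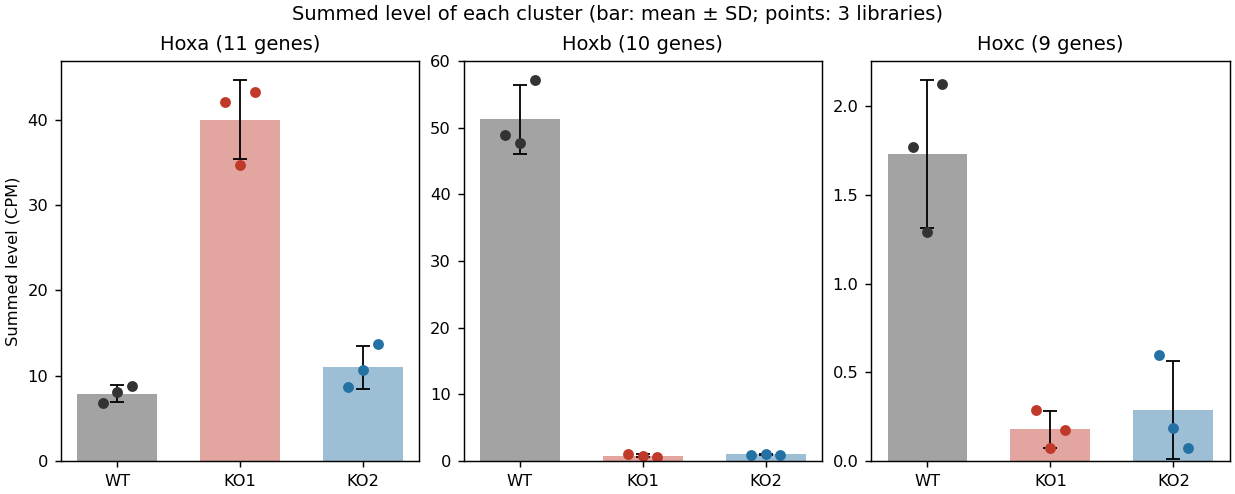
Summed level of the Hoxa, Hoxb and Hoxc genes in CPM, with bars for the mean of 3 libraries, error bars for the SD and points for the libraries. The Hoxb bars of both clones lie near 1 CPM against 51.3 CPM in the control, while the Hoxa bar is highest in KO1.

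As a share of the summed CPM of all Hox genes, Hoxb made up 83.5 to 85.1% in the control, 1.34 to 2.44% in KO1 and 6.03 to 9.38% in KO2. Hoxa made up 11.8 to 14.2% in the control, 96.5 to 98.2% in KO1 and 84.3 to 92.9% in KO2. The Hoxa share of KO2 was apart from that of the control, whereas its Hoxa sum overlapped the control.

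With more than 3 counts in every library as the criterion, 18 of the 39 genes were detected in the control, 11 in KO1 and 12 in KO2. By cluster, 9 of 10 Hoxb genes met it in the control, against 2 in KO1 and 4 in KO2. Of the 11 Hoxa genes, 7 met it in the control, 9 in KO1 and 8 in KO2. No Hoxd gene met it in any group. At 0 counts in all 3 libraries were 14 genes in the control, 5 in KO1 and 16 in KO2. The lower number in KO1 came from replicate 1, which held 7 genes at 0 against 19 and 21 in the other KO1 libraries. That library alone held all KO1 counts of Hoxb9, 12 in number, and of Hoxc6, 4 in number. The KO1 values of these genes thus rest on 1 library.

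**Figure D2:**
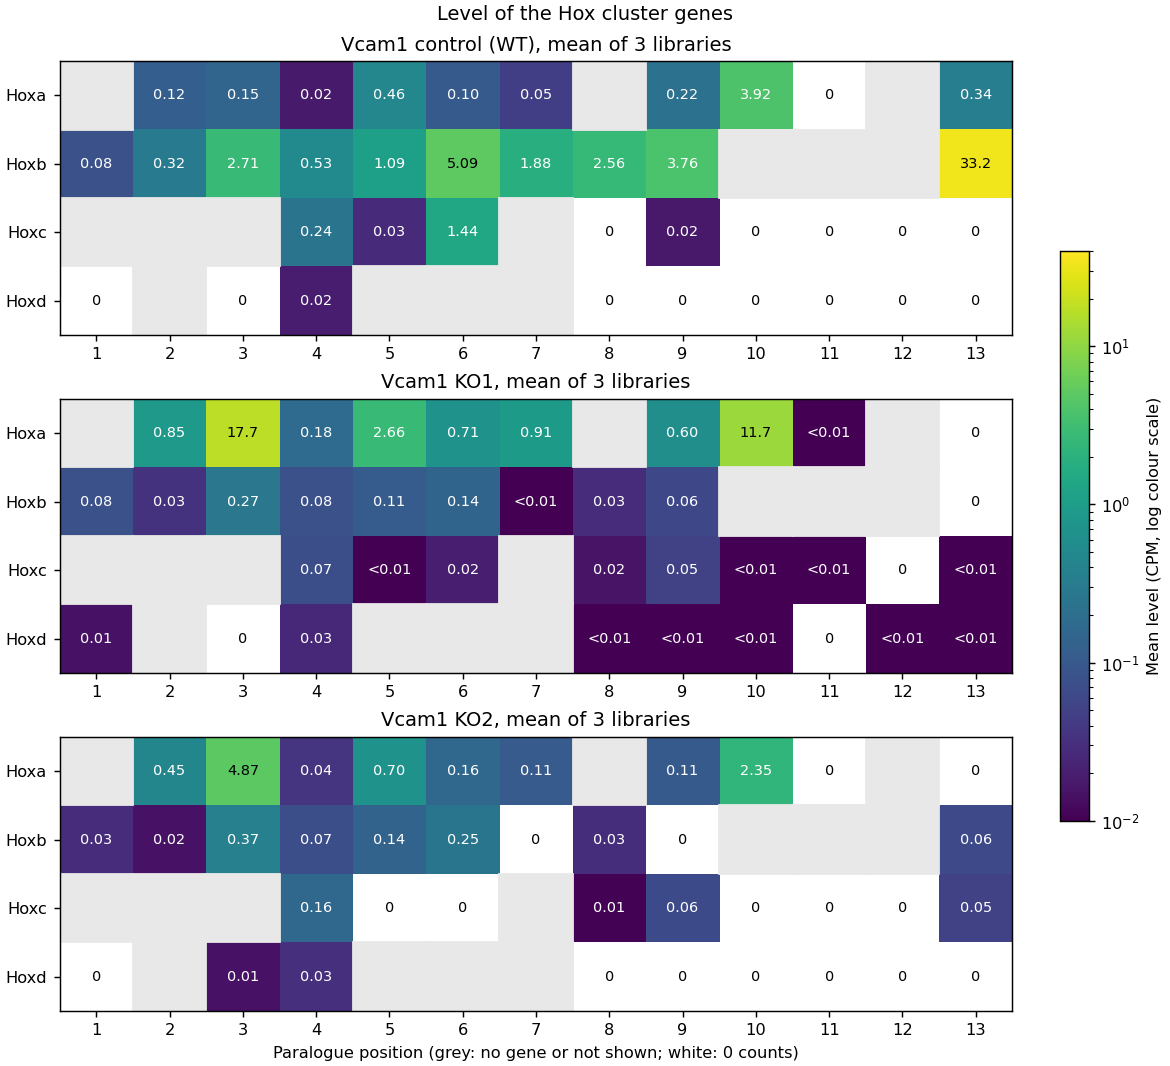
Mean level in CPM (log colour scale, n = 3 libraries) of the Hox genes by cluster and paralogue position, in the control and in each clone; grey cells have no gene or are not shown, and white cells have 0 counts. In the row of Hoxb, the cells from position 2 to 9 and at 13 hold higher levels in the control than in both clones, where some are white. The Hoxa row holds the highest levels in both clones.

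By paralogue position, the leading gene differed between the groups. In the control, a Hoxb gene was the most abundant at positions 2 to 9 and at 13, and a Hoxa gene at position 10. In KO1, a Hoxa gene led at positions 2 to 7, 9 and 10, while positions 11 and 12 held at most 2 counts of a gene in any library. Position 3 summed to 2.86 ± 0.35 CPM in the control, led by Hoxb3, and to 17.9 ± 3.73 CPM in KO1 and 5.26 ± 1.43 CPM in KO2, both led by Hoxa3 (SD, n = 3). Position 6 was highest in the control at 6.64 ± 0.13 CPM, against 0.873 ± 0.093 CPM in KO1 and 0.414 ± 0.047 CPM in KO2. Position 13 was at 33.6 ± 5.99 CPM in the control, where nearly all of its level is Hoxb13. It averaged 0.0085 CPM in KO1, led by Hoxc13, and 0.1145 CPM in KO2, led by Hoxb13. Grouped as anterior (positions 1 to 3), central (4 to 8) and posterior (9 to 13), the control summed to 5.88 ± 0.71, 13.5 ± 0.23 and 41.5 ± 5.61 CPM. KO1 summed to 23.7 ± 4.07, 4.97 ± 0.58 and 12.4 ± 1.29 CPM in that order, and KO2 to 7.93 ± 2.26, 1.7 ± 0.18 and 2.63 ± 0.2 CPM. The posterior sum of the control rested on Hoxb13, without which it was 8.26 CPM, and the anterior sum of KO1 on Hoxa3, without which it was 6.01 CPM. Without Hoxa3 the anterior sum of KO2 was 3.06 CPM. For these sums no test was made.

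Per kilobase of the longest coding transcript, Hoxb13 was the highest Hox gene of the control at 15.1 ± 2.65 CPM per kb. Hoxb6 followed at 2.59 ± 0.26 CPM per kb, well apart from Hoxb13. Hoxa10, Hoxb9 and Hoxb7, at 1.53, 1.46 and 1.46 CPM per kb, did not differ beyond their spread. In KO1, Hoxa3 was at 6.82 ± 1.44, Hoxa10 at 4.55 ± 0.37 and Hoxa5 at 1.42 ± 0.22 CPM per kb. In KO2, Hoxa3 was at 1.88 ± 0.53, Hoxa10 at 0.915 ± 0.12 and Hoxa5 at 0.374 ± 0.083 CPM per kb. With all annotated exons as the length, Hoxa3 ranked 2 in both clones, since several long transcripts are annotated for it.

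Of the 39 genes, 18 passed the filter on low counts and entered the test with 17672 genes in all: 8 in Hoxa, 8 in Hoxb, 2 in Hoxc and none in Hoxd. In KO1 against the control, 17 of the 18 passed an adjusted p of 0.05 in edgeR's quasi-likelihood test, 8 higher and 9 lower, beside 59.9% of all genes tested. The libraries of KO1 and the control did not overlap for 18 of 18, beside 66% of all genes. In KO2 against the control 12 of the 18 passed, 2 higher and 10 lower, beside 51.4% of all genes, and 13 of 18 did not overlap, beside 62.1%. The Hoxb and Hoxc genes tested entered mainly through their control level. Hoxa2, Hoxa6 and Hoxa7, with at most 13 counts in a control library, entered through the clones. So did Hoxa3, with 23, 3 and 17 counts in the control libraries. Hoxa6 and Hoxa7 entered mainly through KO1, with 42 to 77 counts in a library, against 5 to 16 in KO2. Such genes had to differ, so the counts below describe the genes that passed the filter and give no support by themselves. Hoxa13, with counts in the control alone, did not pass it. In KO1 all 8 tested Hoxa genes were higher, beside 29.9% of all genes called higher, with a median log2 fold change of 2.67. All 8 tested Hoxb genes were lower in KO1, beside 30% of all genes called lower, with a median of -5.57. In KO2 all 8 Hoxb genes were lower again, with a median of -5.33 and 26.1% of all genes called lower, but only Hoxa2 and Hoxa3 were called higher, where 25.3% of all genes were. The median over all genes tested was 0.02 in KO1 and 0.0044 in KO2. The clones share the control libraries, so these comparisons are not independent.

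**Figure D3:**
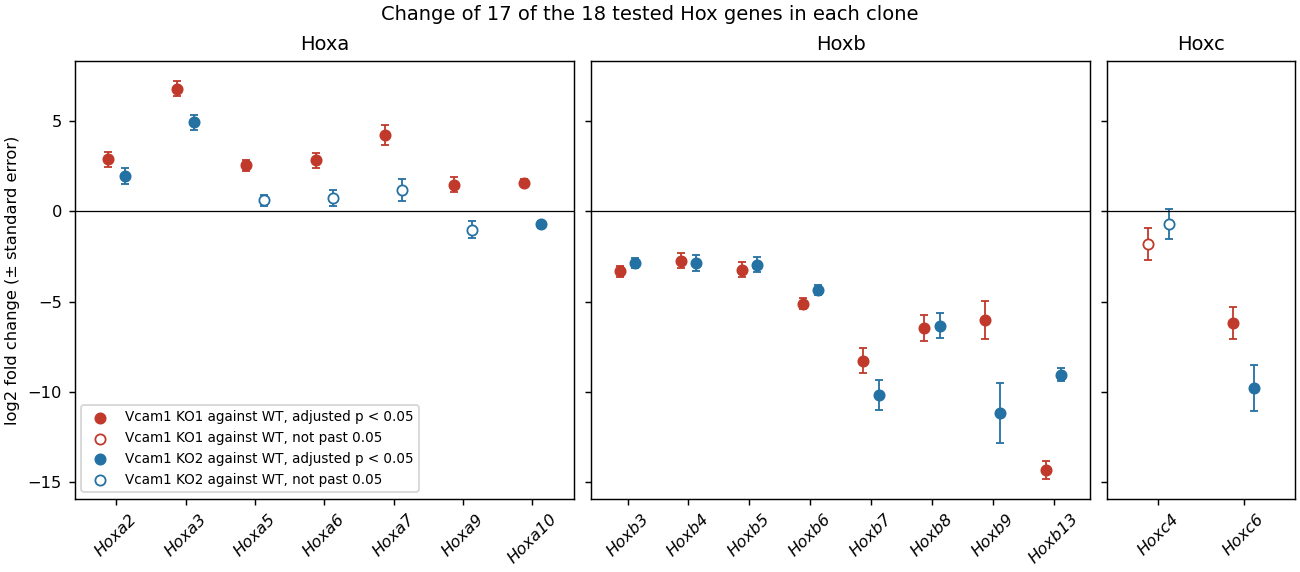
Log2 fold change against the control with its standard error (y axis) for 17 of the 18 tested Hox genes, ordered by position within each cluster (x axis), with filled points for an adjusted p under 0.05. All Hoxb points lie below 0 in both clones, and the Hoxa points of KO1 all lie above those of KO2.

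Among the posterior genes, Hoxb13, which is known from the hindgut and prostate, had the highest Hox level of all. It was at 30.8, 29 and 39.9 CPM in the control, at 0, 0 and 0 CPM in KO1 and at 0.103, 0.0424 and 0.0444 CPM in KO2. KO1 held no count at all, which is at least 804-fold lower than the control against a floor of 3 counts per library. In KO2 the log2 fold change was -9.04 (SE 0.35, adjusted p = 1.03e-06). Hoxb9, which acts in the thoracic skeleton, was at 3.99, 4.21 and 3.09 CPM in the control, 0.18, 0 and 0 CPM in KO1 and 0 CPM in all KO2 libraries. KO2 was at least 81.7-fold lower, and KO1 fell by 6.03 on the log2 scale (SE 1.05, adjusted p = 0.00175). Both genes were separated completely between control and clones.

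Hoxa10, a posterior gene of the reproductive tract and blood lineages, was called in opposite directions in the clones. It was at 3.33, 4.19 and 4.24 CPM in the control, 12.7, 10.9 and 11.4 CPM in KO1 and 2.02, 2.4 and 2.62 CPM in KO2. All 3 groups were thus apart, with KO1 highest and KO2 lowest. The log2 fold change was 1.58 in KO1 (SE 0.18, adjusted p = 6.1e-05) and -0.74 in KO2 (SE 0.18, adjusted p = 0.0072). Hoxa9, its neighbour, was higher in KO1 by 1.45 (SE 0.42, adjusted p = 0.0137), a call lost without KO1 replicate 1 (adjusted p = 0.0681). Its log2 fold change in KO2 was -1.04 (adjusted p = 0.0916), which passed the threshold in a fit on the 6 libraries compared (adjusted p = 0.0335) and without KO1 replicate 3 (adjusted p = 0.0279). Hoxa13, the gene at the posterior end, did not enter the test, with 53, 6 and 39 counts in the control libraries and 0 in all clone libraries. That is at least 8.27-fold lower in KO1 and at least 7.43-fold lower in KO2. Hoxa13, like Hoxb13, was thus highest in the control, whereas the tested Hoxa genes were highest in KO1.

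**Figure D4:**
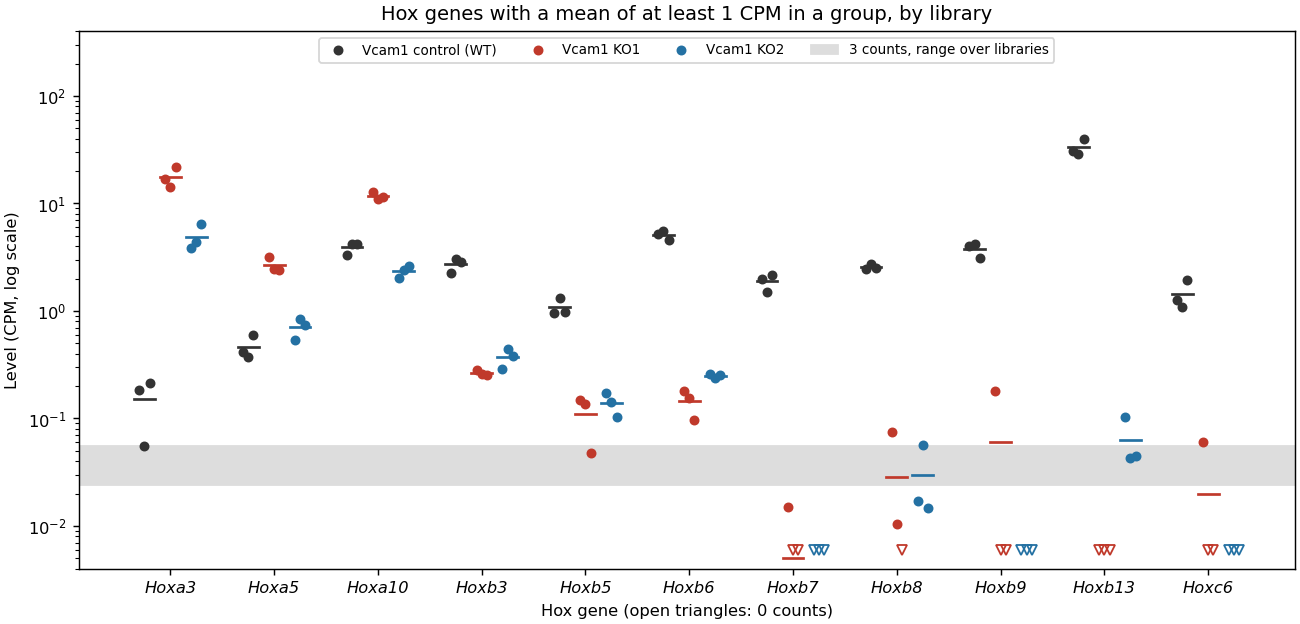
Level in CPM (log axis) of 11 Hox genes with a mean of at least 1 CPM in a group, with a point per library, bars for group means, open triangles for 0 counts and a grey band for 3 counts. Control points lie above both clones for each Hoxb gene and Hoxc6, and KO1 points lie above the control for each Hoxa gene.

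The central Hoxb genes, which pattern the cervical and thoracic axis, all fell in both clones. Hoxb6 was at 5.22, 5.54 and 4.53 CPM in the control, 0.18, 0.157 and 0.0958 CPM in KO1 and 0.257, 0.24 and 0.251 CPM in KO2. Its log2 fold change was -5.12 in KO1 (SE 0.29, adjusted p = 8.57e-07) and -4.34 in KO2 (SE 0.28, adjusted p = 2.14e-06). Hoxb6 kept a low level, above the 3-count limit, in every clone library. Hoxb8, in the same stretch of the cluster, was at 2.45, 2.73 and 2.49 CPM in the control, 0.0749, 0.0104 and 0 CPM in KO1 and 0.0171, 0.0566 and 0.0148 CPM in KO2. Its log2 fold change was -6.47 in KO1 (SE 0.71, adjusted p = 4.54e-05) and -6.32 in KO2 (SE 0.71, adjusted p = 6.4e-05). Most of its clone libraries were at or below 3 counts, so the size of its fall is less certain than that of Hoxb6. Hoxb7 was at 1.98, 1.51 and 2.16 CPM in the control, and the 6 clone libraries held 1 count, in KO1 replicate 1. KO2 was at least 40.9-fold lower, and the ratio for KO1 was 436 with a 95% counting interval of 77.9 to 17260. Hoxb5 fell less, from 0.956, 1.33 and 0.974 CPM in the control to 0.15, 0.136 and 0.0479 CPM in KO1 and 0.171, 0.141 and 0.104 CPM in KO2. The log2 fold changes of Hoxb5 were -3.24 (SE 0.42, adjusted p = 0.000137) and -2.96 (SE 0.42, adjusted p = 0.000284).

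Of the anterior Hoxb genes, Hoxb3, which acts in the hindbrain and pharyngeal arches, was at 2.27, 3.03 and 2.83 CPM in the control. It was at 0.284, 0.261 and 0.255 CPM in KO1 and 0.291, 0.438 and 0.385 CPM in KO2. Its log2 fold changes were -3.33 (SE 0.28, adjusted p = 8.01e-06) and -2.86 (SE 0.27, adjusted p = 2.34e-05). Every Hoxb3 library of the clones stayed well above 3 counts. Hoxb4, a central gene by its position, is also studied in blood stem cells. It was at 0.332 to 0.632 CPM in the control and 0.0479 to 0.103 CPM in the clones. Its log2 fold changes were -2.73 in KO1 and -2.86 in KO2. Hoxb2 and Hoxb1 were not tested. Hoxb2 held 64, 4 and 29 counts in the control, a wide spread, and 4, 4 and 0 in KO1. In KO2 it held 3 counts in all, a ratio of 24.6 with a 95% counting interval of 8.16 to 121. Hoxb1, at the anterior end, held 5, 1 and 14 counts in the control and 2, 6 and 9 in KO1, so no direction could be given. In both clones the fall was smallest for Hoxb3, Hoxb4 and Hoxb5 among the genes tested, as the plot of fold changes by position shows.

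The Hoxa genes of the anterior end rose in KO1. Hoxa3, which acts in the pharyngeal arches and the thymus, showed the largest rise of any Hox gene tested in both clones. It was at 0.183, 0.0554 and 0.215 CPM in the control, 17, 14.3 and 21.7 CPM in KO1 and 3.82, 4.36 and 6.43 CPM in KO2. The log2 fold change was 6.77 in KO1 (SE 0.42, adjusted p = 1.38e-06) and 4.92 in KO2 (SE 0.40, adjusted p = 8.95e-06). No library overlapped between any pair of groups. Hoxa3 passed the filter on low counts through its clone libraries, so its call gives no support by itself. Its transcripts share 8.24% of 31-base words with other genes. Hoxa2, a hindbrain gene, was at 0.0638 to 0.164 CPM in the control, 0.741 to 1 CPM in KO1 and 0.326 to 0.606 CPM in KO2. It rose by 2.87 (SE 0.42, adjusted p = 0.000313) and by 1.94 (SE 0.43, adjusted p = 0.00399) on the log2 scale.

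Of the central Hoxa genes, Hoxa5, known from lung and breast, was at 0.414, 0.369 and 0.594 CPM in the control, 3.14, 2.43 and 2.41 CPM in KO1 and 0.531, 0.834 and 0.74 CPM in KO2. KO1 was higher by 2.53 (SE 0.30, adjusted p = 8.02e-05), while KO2 overlapped the control, at 0.61 (SE 0.30, adjusted p = 0.117). Hoxa6 rose in KO1 by 2.82 (SE 0.42, adjusted p = 0.000303) and Hoxa7 by 4.22 (SE 0.56, adjusted p = 0.000156). In KO2 their values were 0.73 (adjusted p = 0.191) and 1.17 (adjusted p = 0.139). Both genes were low in the control, with 24 and 12 counts over its 3 libraries. Hoxa4 was not tested and held 2, 0 and 3 counts in the control, 7, 23 and 13 in KO1 and 2, 4 and 1 in KO2.

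In Hoxc, Hoxc6, a gene of the thoracic axis and mammary gland, was the one gene above 1 CPM. It was at 1.27, 1.09 and 1.96 CPM in the control, 0.0599, 0 and 0 CPM in KO1 and 0 CPM in all KO2 libraries. It was at least 31.2-fold lower in KO2, and fell by 6.18 (SE 0.89, adjusted p = 0.000665) in KO1. Its paralogue Hoxb6 fell in the same clones. Hoxc4 was at 0.422, 0.185 and 0.126 CPM in the control, 0.0749, 0.0313 and 0.112 CPM in KO1 and 0.377, 0.0707 and 0.0296 CPM in KO2. Its log2 fold changes were -1.83 (adjusted p = 0.0998) and -0.70 (adjusted p = 0.503). Its KO2 level was carried by replicate 1, without which the value was -2.29 (adjusted p = 0.0463). Hoxc13, at 0 counts in the control, held 4, 5 and 1 counts in the KO2 libraries and 1 in KO1. Hoxc9 held at most 8 counts in a library, Hoxc5 at most 5 and Hoxc8 at most 2. Hoxc12 and Hoxd11 were at 0 in all 9 libraries. Of the 9 Hoxd genes, none held more than 4 counts in a library, that one being Hoxd4.

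The clones were also compared with each other. KO1 against KO2, 8 of the 18 tested genes passed, 7 Hoxa genes higher in KO1 and Hoxb13 lower, beside 38.7% of all genes tested, with 20.2% called higher and 18.5% lower. The libraries of the clones did not overlap for 11 of 18, beside 54.9% of all genes. For Hoxa the median log2 difference was 2.002, against 0.04 over all genes. The largest was Hoxa7 at 3.04 (SE 0.52, adjusted p = 0.00182). Hoxa6 and Hoxa7 passed the filter on low counts mainly through KO1, so their differences between the clones give no support by themselves. Hoxa2, at 0.92, missed the threshold (adjusted p = 0.0835) although the 3 KO1 libraries lay above those of KO2. Hoxb13 differed on few counts, 0 in KO1 against 12 in KO2, which is at least 1.53-fold lower in KO1. For the remaining Hoxb genes no difference between the clones passed the threshold, with standard errors from 0.28 for Hoxb3 to 2.47 for Hoxb9. When both clones were set against the control as 1 group of 6 libraries, 14 of 18 passed, 5 higher and 9 lower, beside 43% of all genes, with 21.7% called higher and 21.2% lower. No overlap was seen for 11 of 18, beside 44.2% of all genes. The 6 clone libraries stem from KO1 and KO2, each 1 clone, and are not independent replicates of the knockout. The 5 called higher were Hoxa2, Hoxa3, Hoxa5, Hoxa6 and Hoxa7. In that comparison Hoxa10 was at 0.84 (adjusted p = 0.339), its clones lying on opposite sides of the control. As the average of the clones' contrasts it was 0.42 (adjusted p = 0.0424). The calls of Hoxa5, Hoxa6 and Hoxa7 were lost with limma-voom (adjusted p = 0.0802, 0.0822 and 0.0825). In the edgeR test each was also lost when any 1 control library was left out (adjusted p from 0.0573 to 0.164). Those of Hoxa5 and Hoxa6 were lost as well without any 1 KO1 library and with no filter on low counts. Hoxa6 was further lost with upper-quartile and RLE scaling (adjusted p = 0.0532 and 0.0508), and Hoxa7 without KO1 replicate 1 or 2.

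Other genes within the clusters were examined for the same pattern. The annotation places 46 of them between the outermost Hox genes, of which 7 were tested. In KO1, 3 were called higher and 2 lower, and in KO2 2 higher and 2 lower, which is 71.4% and 57.1%, close to the 59.9% and 51.4% of all genes called. Gm27605, a small RNA gene beside Hoxb13 on the other strand, was at 1.47, 1.02 and 0.936 CPM in the control and at 0 in all 6 clone libraries, at least 27.6-fold lower in KO1 and 24.8-fold lower in KO2. Gm53, a long noncoding RNA between Hoxb13 and Hoxb9, fell, with log2 fold changes of -3.82 (adjusted p = 0.00024) and -3.32 (adjusted p = 0.000579). It was chosen after its values were seen, as were 5730596B20Rik and Hotairm1. In Hoxa, the antisense RNA Gm15050 rose by 2.38 (SE 0.32, adjusted p = 0.000168) in KO1 and by 1.28 (SE 0.32, adjusted p = 0.00749) in KO2. Gm53 and Gm15050 thus had the direction of the Hox genes tested in their cluster in KO1. 5730596B20Rik, within the Hoxa3 gene model on the opposite strand, was at 0 in the control and was at least 15.4-fold higher in KO1 and 5.91-fold higher in KO2. Hotairm1, an antisense RNA of the cluster, did not pass the threshold, at 0.13 in KO1 (SE 0.19, adjusted p = 0.563) and 0.03 in KO2 (SE 0.19, adjusted p = 0.913), with 4.95 to 7.39 CPM in all libraries. Of the genes that flank the clusters, 21 were tested, with 9 higher and 5 lower in KO1 and 9 higher and 4 lower in KO2, or 66.7% and 61.9%, beside 59.9% and 51.4% of all genes. Ttll6, 28.9 kb beyond the Hoxb13 end of Hoxb, encodes a tubulin-modifying enzyme and fell, with log2 fold changes of -2.67 (adjusted p = 0.00487) and -4.52 (adjusted p = 0.000718). Skap2, an adaptor gene 143 kb from Hoxa, rose by 1.502 (adjusted p = 3.18e-06) and 0.74 (adjusted p = 0.000332). Snx10, a sorting nexin gene further out, rose by 1.12 (adjusted p = 5.04e-05) and 0.41 (adjusted p = 0.0195). Skap1, 96.3 kb from Hoxb, rose by 5.38 (adjusted p = 0.000711) and 4.12 (adjusted p = 0.00577), against the direction of the Hoxb genes tested. Skap1 held at most 2 counts in a control library and stayed below 1 CPM in all libraries. Chn1, near Hoxd at 893 kb, fell by 1.42 in KO1 (adjusted p = 0.0172) and was at 0.59 in KO2 (adjusted p = 0.268).

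**Figure D5:**
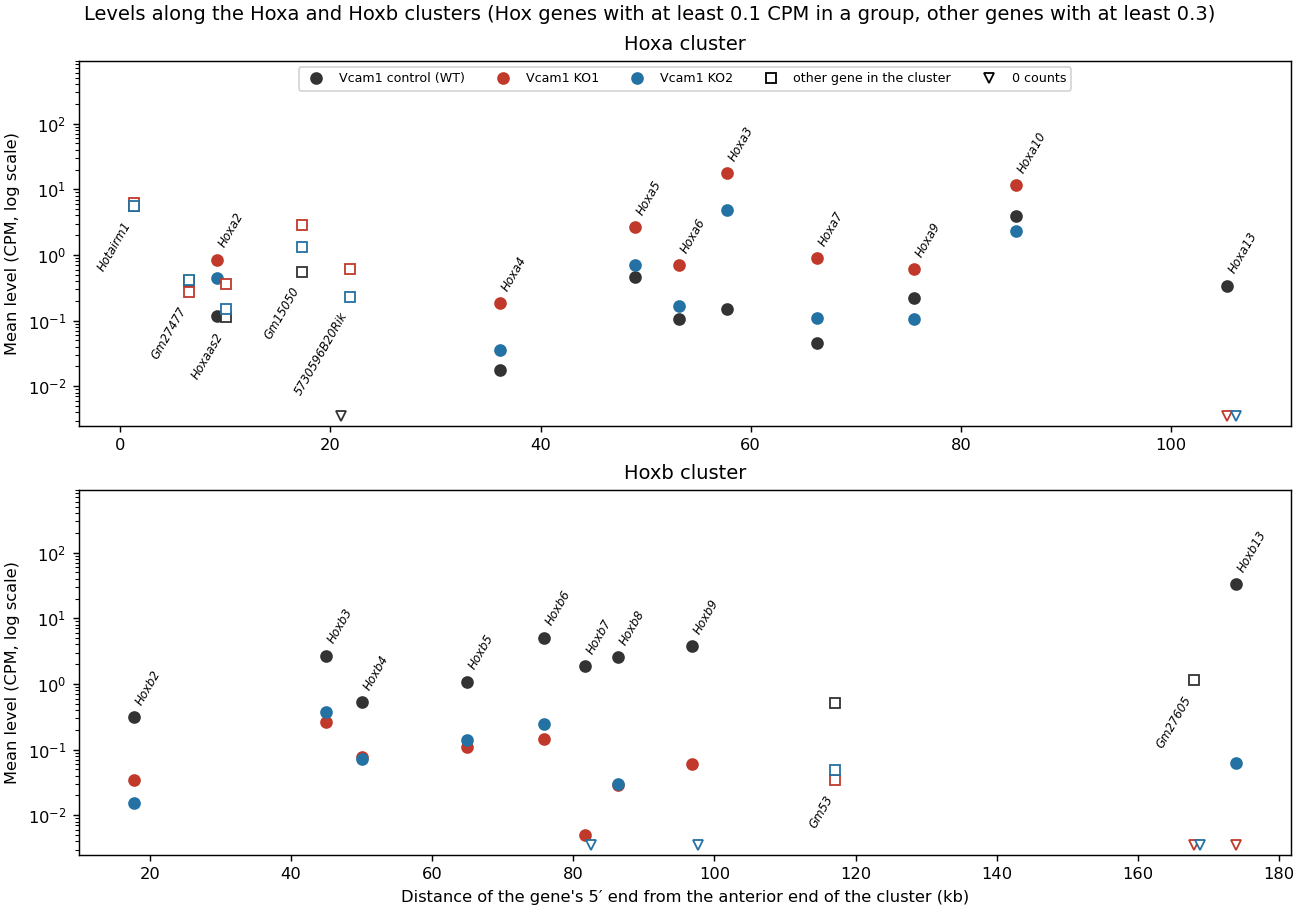
Mean level in CPM (log axis, n = 3 libraries per group) of genes along Hoxa and Hoxb against the distance in kb of the 5′ end of the gene model from the anterior end of the cluster; squares are other genes and triangles 0 counts, set side by side where they coincide. For the Hoxb genes drawn, the control lies above both clones, while for the Hoxa genes KO1 lies highest except at Hoxa13.

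Genes known to act with or on Hox genes were read as lists. Of the TALE homeodomain cofactors, which bind DNA together with Hox proteins, 9 were tested, with 7 higher and 1 lower in KO1 and 4 higher and 1 lower in KO2, or 88.9% and 55.6%, beside 59.9% and 51.4% of all genes. Pknox2 rose by 3.26 (adjusted p = 4.87e-05) in KO1 and 2.997 (adjusted p = 9.8e-05) in KO2. Pbx3 rose by 0.65 (adjusted p = 0.003) and 1.41 (adjusted p = 3.38e-05). Meis1, a common Hox partner, rose by 0.86 (adjusted p = 0.00149) in KO1 and by 0.59 (adjusted p = 0.0141) in KO2. Of 28 Polycomb and Trithorax regulators, 7 were higher and 7 lower in KO1 and 5 higher and 5 lower in KO2, or 50% and 35.7%, both below the shares over all genes. Phf19, an accessory subunit of Polycomb complex 2, fell, with log2 fold changes of -3.62 (adjusted p = 3.56e-05) and -1.49 (adjusted p = 0.00538). Cbx7, a reader of the Polycomb mark, rose by 2.01 (adjusted p = 0.000197) and 2.48 (adjusted p = 6.96e-05). Phc2, of Polycomb complex 1, fell as well, at -1.90 in KO1 and -1.16 in KO2, and Cbx2 was at -1.61 in KO1 (adjusted p = 0.00336) and -0.81 in KO2 (adjusted p = 0.0785).

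Retinoic acid switches on anterior Hox genes in the embryo. Of 14 tested genes for its synthesis, breakdown and receptors, 7 were higher and 4 lower in KO1, and 4 higher and 5 lower in KO2, or 78.6% and 64.3%, beside 59.9% and 51.4% of all genes. Aldh1a3, a synthesis enzyme, fell, with log2 fold changes of -6.67 (adjusted p = 2.87e-07) and -6.79 (adjusted p = 3.94e-07). Aldh1a1, another, fell as well, at -1.80 (adjusted p = 0.00086) in KO1 and -7.72 (adjusted p = 9.38e-07) in KO2. Cyp26b1, which breaks retinoic acid down, fell by 1.98 in KO1 (adjusted p = 3.87e-05) and was at -0.19 in KO2 (adjusted p = 0.472), and Dhrs3, which turns retinal back to retinol, rose by 2.23 in KO1 (adjusted p = 0.00735) and was at 0.24 in KO2 (adjusted p = 0.745). Of the axial regulators 5 of 11 in the table were tested, with 2 higher and 1 lower in each clone, or 60%. Cdx2, an intestinal homeobox factor that acts on Hox genes of the trunk, was at 18.2, 14.3 and 20.7 CPM in the control. The clone libraries held 1 count of Cdx2, in KO1 replicate 2, so Cdx2, like Hoxb13, was near 0 in both clones. Gdf11, a signal that activates posterior Hox genes, rose by 3.05 (adjusted p = 7.99e-06) in KO1 and 2.46 (adjusted p = 3.41e-05) in KO2. How far these genes bear on the Hox levels was not tested.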

How the data were processed

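RNA was sequenced from 3 control (WT), 3 KO1 and 3 KO2 libraries with a stranded, paired-end protocol. The authors quantified reads with kallisto 0.46.1 on GENCODE transcripts of GRCm38 (mm10), and deposited counts per gene symbol that are whole numbers and not normalized. How transcripts were summed to symbols is not given in the sources used here. Library labels give the group; replicate numbers follow the order of deposit.

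Counts were scaled with TMM and filtered with filterByExpr, which left 17672 of 55276 genes. They were tested in edgeR 4.0.16 (R 4.3.3) with the quasi-likelihood test, all 9 libraries and 3 groups, and Benjamini-Hochberg adjustment over all genes tested, with a threshold of 0.05. The combined comparison was a separate fit on the 9 libraries, with KO1 and KO2 as 1 group. The study's methods use limma-voom, which was run here (limma 3.58.1) as an alternative, beside DESeq2 1.42.0, other scalings and filters, a demand for a 2-fold change, fits on 6 libraries and leaving out each library. The scripts were tested on simulated counts. Folds against groups at 0 are bounds against 3 counts per library; intervals and these limits cover counting error only. Precision is limited by the 3 libraries per group and, for genes near 3 counts, also by depth.

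Every Hox gene is counted, and some genes and 1 sequence are not reported here. Those with a mean of at least 1 CPM in a group are given per library. From each list of other genes at most 4 are named by rule. They are those past the threshold with the largest fold change and at least 1 CPM in a group. Gm53, 5730596B20Rik, Hotairm1, Skap1 and the cell type markers named one by one fall outside this rule. Their choice was made after their values were seen. Members, lists and motifs were chosen with earlier results of these data known. Gene positions and homeoboxes are from GENCODE vM21 of GRCm38, another release than the authors used. Of the lists not named in the report, the summed level in the control, KO1 and KO2 reached at most 20.5, 30.3 and 34.9 CPM for hepatic stellate cells, 20.8, 11.9 and 9.65 CPM for haematopoietic cells, 2.05, 4.45 and 1.92 CPM for endothelium and 251, 0.99 and 10.8 CPM for mesothelium.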

Additional observations from a re-analysis of the deposited data

Results flagged for a closer look

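For each of the following Hox genes the change in KO1 differed from that in KO2 by the test of the difference itself, the contrast of the clones in the fit over 9 libraries. The log2 difference, KO1 over KO2, was 1.86 for Hoxa3 (adjusted p = 0.00209). It was 1.92 for Hoxa5 (adjusted p = 0.00107), 2.09 for Hoxa6 (adjusted p = 0.0032) and 3.04 for Hoxa7 (adjusted p = 0.00182). Hoxa9 differed by 2.49 (adjusted p = 0.00267) and Hoxa10 by 2.31 (adjusted p = 2.94e-05). For each of these 6 Hoxa genes the 3 KO1 libraries lay above the 3 KO2 libraries. The genes were listed because they passed this test, so that separation gives no further support. Of all genes tested, 38.7% passed between the clones and 54.9% did not overlap. Hoxa6 and Hoxa7 also passed the filter on low counts mainly through KO1. Hoxb13 differed by -5.25 (adjusted p = 0.00456), with 0 counts in KO1 and 12 over the KO2 libraries, so this value depends on the prior count and is no measure of size. As each clone arose from 1 cell, the guide's effect and the difference between clones cannot be told apart. All p-values are from edgeR's quasi-likelihood test.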

How the results depend on the processing

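No paired analysis was possible because the labels give no replicate numbers shared by the groups. With a filter at a mean of 1 CPM over the libraries, 8 Hox genes were tested and the calls were 8 in KO1 against the control, 6 in KO2 against the control, 5 between the clones and 6 with the clones combined, since fewer genes were tested. With a mean of at least 1 CPM as the criterion of detection, 10 genes were detected in the control, 4 in KO1 and 3 in KO2. Without genes that overlap another gene on the same strand, the Hoxa sum was 20.9 CPM in KO1, 5.55 CPM in KO2 and 7.39 CPM in the control, so that KO2 lay below the control in place of above it, and the Hoxd sum was 0 in KO2. With all exons as length, Hoxa3 ranked 2 in KO1 and 2 in KO2. Leaving out each library in turn gave 17 to 21 calls in KO1, 12 to 15 in KO2 and 8 to 9 between the clones. With the clones combined it gave 11 to 17, and 19 to 21 Hox genes were tested. For these refits, and for the filter at 1 CPM, the share of all genes called was not computed.

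Signs turned in 10 refits, each for a value that did not pass the threshold. When 1 library was left out, Hoxc4 in KO2 lay between -2.29 and 0.0067. Between the clones, Hoxb4 lay between -0.056 and 0.39, Hoxb5 between -0.56 and 0.0425, Hoxb8 between -2.05 and 0.71 and Hoxc4 between -1.67 and 0.41. Of the other alternatives for single genes, 993 kept direction and call, 25 lost the call and 7 gained it. Apart from Hoxa9 in KO1, the lost calls were those of Hoxa5, Hoxa6 and Hoxa7 with the clones combined. The cause of these shifts was not tested. Depth limits the genes near 3 counts, most of Hoxc and Hoxd.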
